A study of Cavia porcellus with 72 samples.

Results

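The heat shock proteins and chaperonins are the proteins that fold, refold and take apart other proteins. Here they are the genes whose symbol begins with HSPA, HSPB, HSPD, HSPE, HSPH or HSP90, with DNAJA, DNAJB or DNAJC, or with CCT, together with HSPBP1, and 67 of the 11927 genes listed in any of the 3 count tables met that rule. Families were assigned from the symbol alone. By family they were 9 HSP70 genes, 3 HSP110 genes, HSPBP1, 2 HSP90 genes, 6 small heat shock proteins, the 2 parts of the mitochondrial chaperonin, 4 DNAJA, 9 DNAJB and 23 DNAJC genes, and 8 genes of the cytosolic chaperonin. The genes TCP1 (the first subunit of the cytosolic chaperonin) and HSP90AB1 were not analysed here. No measured value enters the rule, but the group was put forward with the F3 result of HSPH1 and of the chaperonin subunits already known, so the counts below describe these animals and are not independent support.

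The samples were hippocampi of juvenile female Dunkin-Hartley guinea pigs, taken on postnatal day 40. The pregnant F0 animals had received the synthetic glucocorticoid (sGC) betamethasone or saline (control), and the F1 females sampled were their direct offspring. The F2 and F3 females descended from the treated or control F0 pregnancies through males that were mated with untreated, non-experimental females, so that no F2 or F3 pregnancy was itself treated. RNA-seq covered 6 control and 5 sGC animals in F1, 6 and 6 in F2, and 6 and 7 in F3, each from a different mother.

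Chaperones of the HSP70 family bind exposed stretches of unfolded protein and let go of them in a cycle driven by ATP. J proteins (DNAJ) bring the client and start ATP hydrolysis, nucleotide exchange factors such as the HSP110 proteins reset the cycle, and HSP90 takes over late-folding clients, among them steroid receptors such as the glucocorticoid receptor. Chaperonins work differently, as closed barrels in which a protein folds alone: the cytosolic CCT ring folds actin and tubulin, and HSPD1 with its lid HSPE1 serves the mitochondrial matrix. In neurons these proteins are abundant, and several J proteins have special tasks at the synapse, where DNAJC5 guards vesicle proteins and DNAJC6 helps to strip clathrin from vesicles.

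Levels are given as CPM, the reads of a gene scaled to 1e+06 counted reads, after TMM scaling within a generation, and each of the 36 libraries held 13507449 to 19767033 counted reads. Of the 67 genes, 66 had enough reads to be tested in F1 (all but HSPB3), 63 in F2 (DNAJC19 and HSPB3 were too low, HSPA1A and HSPB7 not listed) and 66 in F3 (all but HSPB3). Markers of hippocampal identity such as PROX1 and NEUROD2 were present in both groups, with a summed level of 6 listed genes from 524 to 652 CPM over all libraries of F3 and from 537 to 626 CPM over those of F1 and F2. In whole tissue, fewer cells of a type and less RNA per cell cannot be told apart. The libraries numbered 32 to 36 in the labels (sGC replicates 4 and 5 of F1, 6 of F2, and 5 and 6 of F3) lie outside the number run of their generations and are all sGC, so counts are also given without them. Levels were not comparable between the F2 table and the others: of the 63 members tested in all 3 tables, 9 had control means in F2 that differed over 1.5-fold from both F1 and F3 with no overlap of animals, against 0 between F3 and F1, where the ratios lay between 0.925 and 1.18. The largest gap was that of DNAJC7, at 692 ± 80.7 CPM (SD, n = 6) in F1 control, 84.0 ± 3.65 CPM (SD, n = 6) in F2 control and 668 ± 82.8 CPM (SD, n = 6) in F3 control. The same fold was passed by 8.46% of all genes between F2 and F1 and by 0.457% between F3 and F1. Comparisons of sGC with control were therefore made within a generation. Below, levels of different generations are set side by side only to state this limit. No lengths of transcripts were used, so levels are not compared between genes either.

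In F3, the great-granddaughters of the treated animals, chaperone transcripts were on the low side in sGC animals. Of 66 members tested, 14 were lower and 2 higher at an adjusted p below 0.05 (edgeR's quasi-likelihood test), beside 2.87% of all 11359 genes called lower, 2.17% called higher and 5.04% called in all. Those called lower were the constitutive HSP70 HSPA8, the inducible HSPA1A and the mitochondrial HSPA9, all 3 HSP110 genes, HSP90AA1, the J proteins DNAJA1, DNAJA2 and DNAJC16, and 4 subunits of the CCT ring, and those called higher were DNAJC15 and DNAJC27. In all, 45 of 66 had a log2 fold change below 0, with a median of -0.056, where 48.3% of all genes were below 0 and their median was 0.0048. Log2 fold changes are sGC minus control throughout. For 10 members every sGC animal lay below every control animal, and for 0 every sGC animal lay above (background 1.88% and 0.836%, together 2.71%). At an unadjusted p below 0.05 there were 24 lower and 4 higher members, beside 10.8% and 10.3% of all genes. Leaving out sGC replicates 5 and 6, which carry late library numbers, gave 9 calls, all of them among the 16, since CCT4, CCT6A, DNAJA2, DNAJC16, HSPA1A, HSPA4 and HSPA9 no longer passed. It left the same number of 10 members with groups apart on the low side plus 1 (DNAJC27) on the high side, where over all genes 2.17% and 1.5% were apart with 5 sGC animals left and 2.79% were called. Reads on the 67 genes made up 1.28 to 1.36% of all counted reads in the 6 control animals and 1.17 to 1.26% in the 7 sGC animals, so these ranges did not meet. The group means were 1.31% and 1.22%. In F1 the means were 1.32% and 1.22%, with overlapping ranges of 1.27 to 1.36% and 1.09 to 1.29%. In F2 the means were 1.31% and 1.28% over the listed members, and the ranges overlapped. Of the members, HSPA8 and HSP90AA1 carried the most reads, at control means of 2177 and 2173 CPM in F3, so the share weighs them most.

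**Figure D1:**
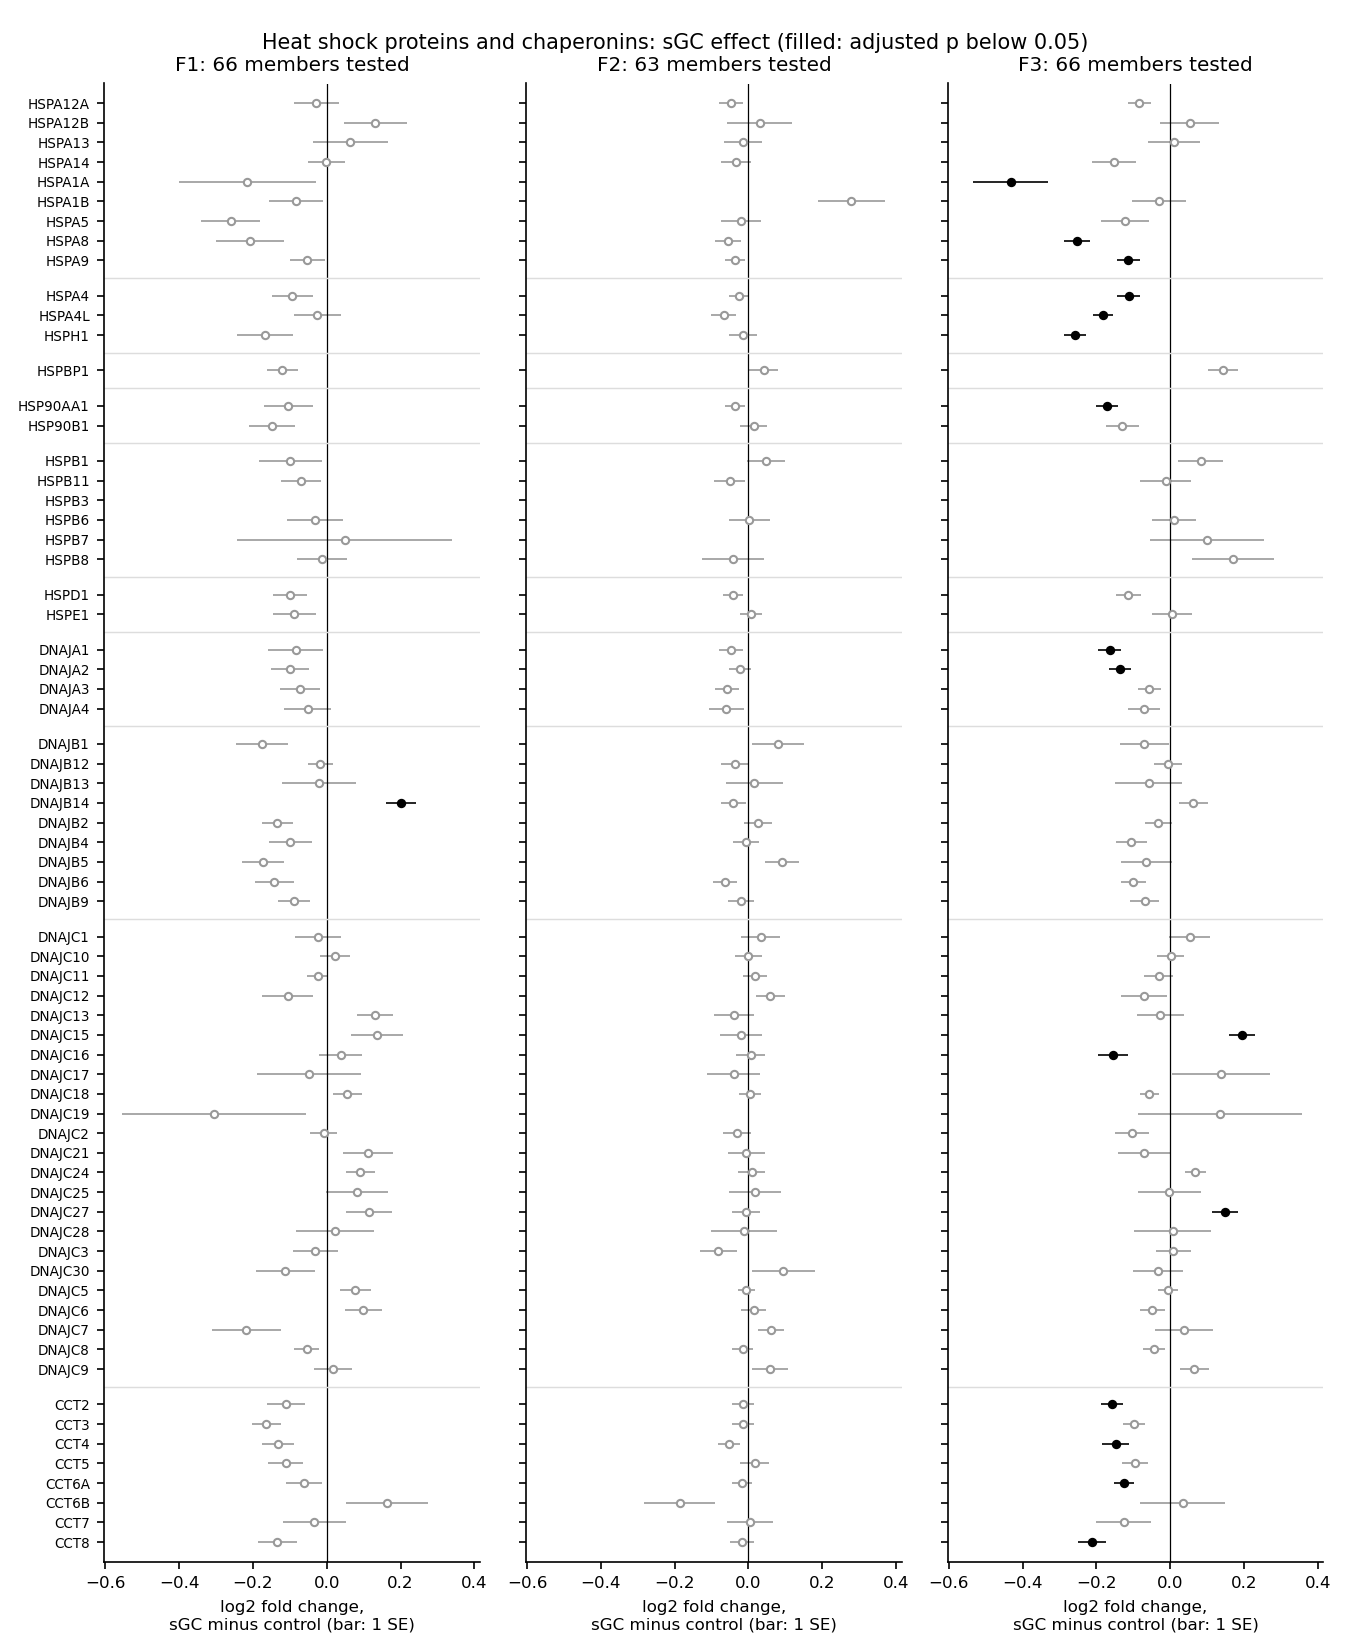
Log2 fold change of sGC minus control for every member tested in F1 (66), F2 (63) and F3 (66), grouped by family from HSP70 at the top to the cytosolic chaperonin at the bottom; bars are 1 standard error and filled points have an adjusted p below 0.05 (1 in F1, 0 in F2, 16 in F3). Most filled points in F3 lie left of 0, with HSPA1A farthest out at -0.43. The F2 points reach from -0.19 (CCT6B) to 0.28 (HSPA1B).

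Among the cytosolic folding machines, HSPH1 had the smallest adjusted p in F3. HSPH1 (HSP105), a nucleotide exchange factor that also helps to dissolve protein aggregates, had a lowest, median and highest level of 314, 334 and 347 CPM in 6 control animals and 264, 280.2 and 287 CPM in 7 sGC animals. Every sGC animal was below every control animal, and the mean fell by 16.4% (edgeR, log2 fold change -0.26, SE 0.0304, adjusted p = 0.00168). Both of its relatives were called as well. HSPA4L had 169.7, 174 and 181 CPM in control and 149.7, 154 and 159 CPM in sGC animals, again without overlap (log2 fold change -0.18, SE 0.0278, adjusted p = 0.00270; edgeR). HSPA4, the remaining gene of this kind, overlapped between the groups at 294 to 332 and 279.7 to 298 CPM and passed narrowly (log2 fold change -0.11, SE 0.0316, adjusted p = 0.0493; edgeR). HSPA4 kept an adjusted p below 0.05 only without control replicate 1, control replicate 6 or sGC replicate 6, and reached 0.105 when other animals were left out one at a time.

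HSPA8, the HSP70 that works in unstressed cells and uncoats clathrin vesicles, had the next smallest adjusted p. Its lowest, median and highest levels were 2061, 2168 and 2308 CPM in control and 1757, 1820.1 and 1948 CPM in sGC animals of F3. No sGC animal reached the lowest control animal, and the difference was close to that of HSPH1 on the log2 scale (edgeR, log2 fold change -0.25, SE 0.0351, adjusted p = 0.00195). HSP90AA1, the stress-responsive HSP90 of the cytosol, had 2108, 2169 and 2252 CPM in control and 1856, 1933 and 2021 CPM in sGC animals, also without overlap (log2 fold change -0.17, SE 0.0298, adjusted p = 0.00568; edgeR). Reads of both genes can be shared with near-identical processed copies elsewhere in a genome, which the deposited counts do not resolve. HSPA9 (mortalin), which pulls proteins into mitochondria, was lower in each of the 7 sGC animals than in any control animal, at 228 to 243 against 244 to 271 CPM (log2 fold change -0.11, SE 0.0304, adjusted p = 0.0408; edgeR). HSPA9 kept that call only without control replicate 5, sGC replicate 1 or sGC replicate 6, with an adjusted p of up to 0.0875 otherwise.

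Of the pair of heat-inducible HSP70 genes, HSPA1A was called in F3 and HSPA1B was not. HSPA1A, with few reads, had 5.29, 6.37 and 7.65 CPM in control and 3.91, 4.88 and 5.41 CPM in sGC animals, and 7 of 7 sGC animals were below the control mean although the groups touched (log2 fold change -0.43, SE 0.102, adjusted p = 0.0217; edgeR). Without control replicate 2 its adjusted p was 0.0504. For its neighbour HSPA1B, which codes for almost the same protein, the values were 129.7, 131 and 161 CPM and 117, 136 and 158 CPM, and the groups overlapped (log2 fold change -0.031, SE 0.0731, adjusted p = 0.858; edgeR). Because the copies are nearly identical, how reads were divided between them is uncertain, and whether their changes differ was not tested. The other HSP70 genes had adjusted p-values from 0.126 (HSPA12A, -0.083) to 0.958 (HSPA13, 0.0095) in F3. HSPA12A had an adjusted p of 0.0447 without control replicate 6.

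HSPBP1, which binds HSP70 and releases its nucleotide, leaned the other way. In F3 it had 47.0, 51.3 and 54.1 CPM in control and 52.1, 56.8 and 59.7 CPM in sGC animals, where each of the 7 sGC animals exceeded the mean of control, and its adjusted p of 0.0543 missed the threshold (edgeR, log2 fold change 0.14, SE 0.0414). Without control replicate 5 or sGC replicate 4 it was 0.0479 and 0.0345. HSPBP1 was singled out after its values were seen.

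The HSP70 and HSP90 of the endoplasmic reticulum (ER) were both below 0 in F3 without passing. HSPA5 (BiP), the HSP70 of the ER, overlapped between the groups in F3 at 377 to 481 CPM in control and 331 to 416 CPM in sGC animals (log2 fold change -0.12, SE 0.0652, adjusted p = 0.300; edgeR). HSP90B1 (GRP94), the HSP90 of the same compartment, had 487 to 558 and 438 to 518 CPM (log2 fold change -0.13, SE 0.0453, adjusted p = 0.110; edgeR), and an adjusted p of 0.0492 without sGC replicate 6. Among 16 further genes of ER folding that were tested, 2 were called lower and 0 higher: HYOU1, the ER relative of HSP110 (log2 fold change -0.12, adjusted p = 0.0379), and PDIA3, a disulfide isomerase of glycoproteins (log2 fold change -0.15, adjusted p = 0.0496; both edgeR). Of these 16 genes, 12 were below 0, with a median of -0.040 and 4 lower at an unadjusted p below 0.05 (background 10.8%).

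**Figure D2:**
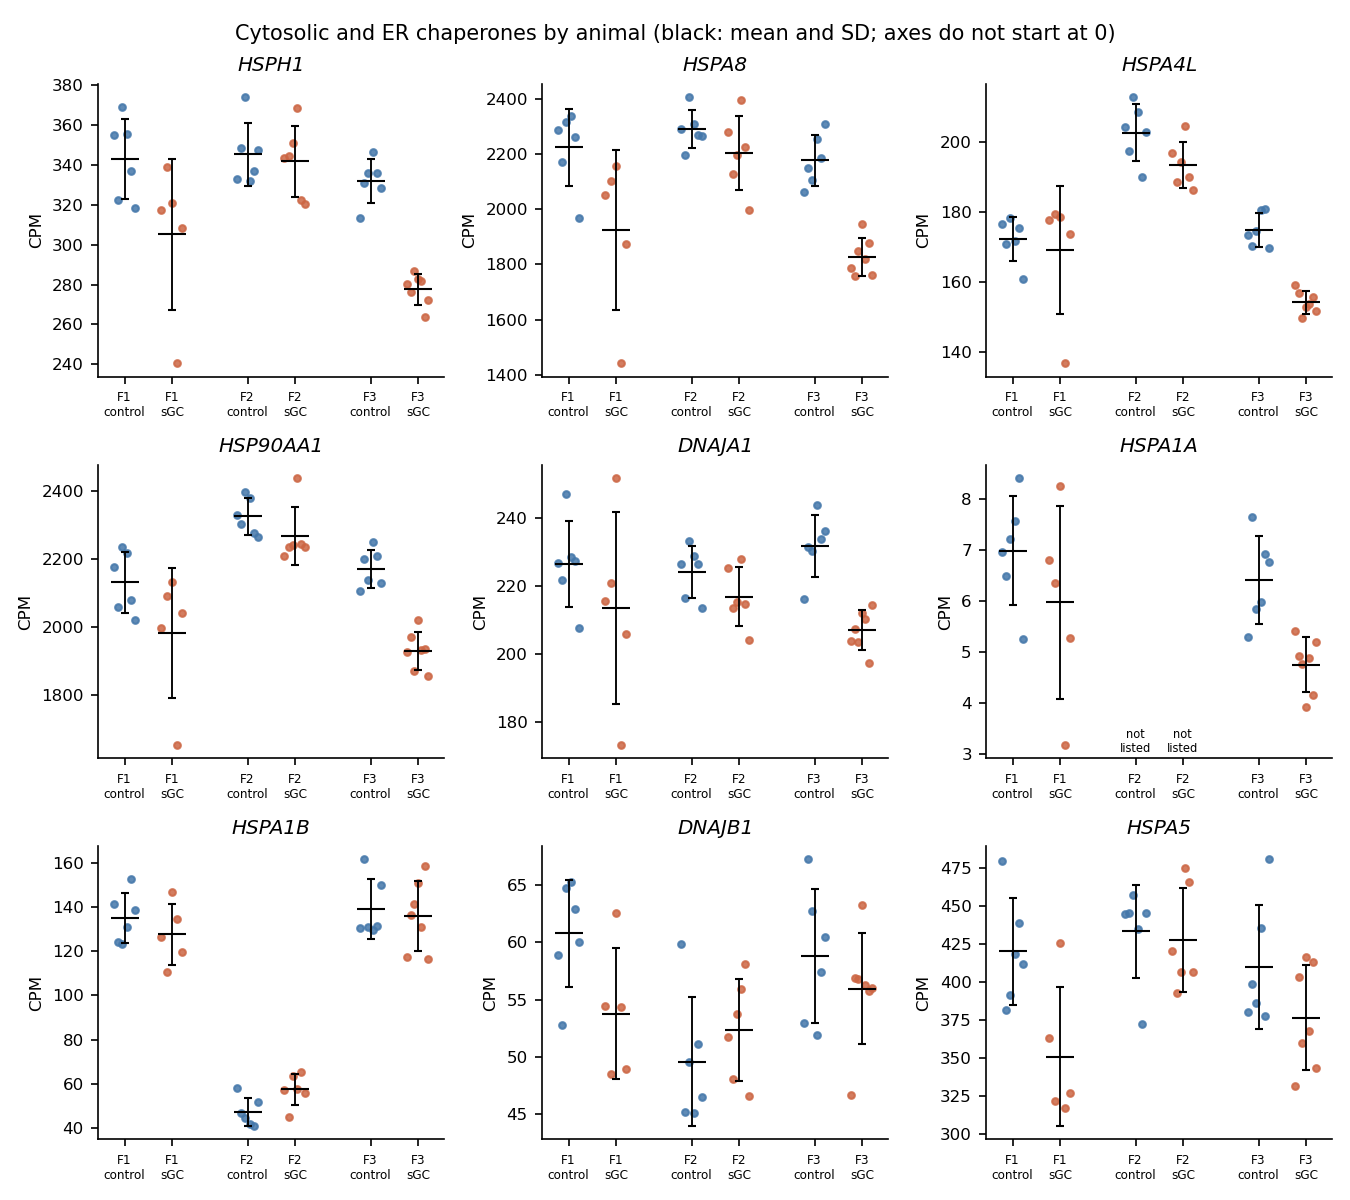
Level in CPM of 9 cytosolic and ER chaperones in each animal of the 6 groups; points are animals, black marks the mean and its SD, and the axes do not start at 0. In F3 the 7 sGC animals of HSPH1 (264 to 287 CPM) lie below the 6 control animals (314 to 347 CPM), and in F1 a single sGC animal lies far below the rest. Levels in the F2 table, as for HSPA1B, are not comparable with those in the others.

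Among the J proteins of F3, all 4 DNAJA genes were below 0, with a median of -0.10, and 2 were called lower. DNAJA1, a partner of HSP70 in the cytosol, had 216, 233 and 244 CPM in control and 197, 207 and 214 CPM in sGC animals, with no overlap (log2 fold change -0.16, SE 0.0318, adjusted p = 0.00902; edgeR). DNAJA2, its close relative, had 169.8 to 187 and 152 to 163 CPM, equally apart (log2 fold change -0.14, SE 0.0301, adjusted p = 0.0160; edgeR). DNAJA3, in mitochondria, and DNAJA4 had log2 fold changes of -0.056 and -0.070 and did not pass. Of 9 DNAJB genes 8 were below 0 and 0 passed, with 2 at an unadjusted p below 0.05 in edgeR and DNAJB6, which keeps polyglutamine proteins from aggregating, closest (log2 fold change -0.10, SE 0.0344, adjusted p = 0.103). DNAJB1, the heat-inducible HSP40, overlapped widely at 51.9 to 67.2 and 46.7 to 63.2 CPM (log2 fold change -0.070, SE 0.0659, adjusted p = 0.591; edgeR).

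The DNAJC genes, which share little beyond the J domain, went both ways: 12 of 23 were below 0 in F3, 1 was called lower and 2 higher. DNAJC15, a J protein of the inner mitochondrial membrane, had 81.9, 85.7 and 88.5 CPM in control and 87.4, 98.8 and 103 CPM in sGC animals, where 6 of 7 sGC animals lay above every control animal (log2 fold change 0.19, SE 0.0363, adjusted p = 0.00779; edgeR). DNAJC27, which joins a J domain to a small GTPase, was at 148, 163 and 169.8 CPM in control and 168, 181 and 187 CPM in sGC animals, and 6 of 7 again lay above every control animal (log2 fold change 0.15, SE 0.0354, adjusted p = 0.0218; edgeR), and its adjusted p was 0.0554 without sGC replicate 5. DNAJC16 was lower, at 48.6 to 55.7 against 53.5 to 60.4 CPM (log2 fold change -0.15, SE 0.0409, adjusted p = 0.0387; edgeR), but passed only without control replicate 2, control replicate 6 or sGC replicate 6 and reached 0.0886 otherwise. The synaptic J proteins DNAJC5 and DNAJC6 had log2 fold changes of -0.0057 (SE 0.0281) and -0.048 (SE 0.0347), with adjusted p-values of 0.935 and 0.467 in edgeR. DNAJC19, part of the motor that imports mitochondrial proteins, had the highest coefficient of variation (SD over mean) between control animals of the tested members, 38.3%, at 0.607 to 1.61 CPM.

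In the CCT ring, 7 of the 8 genes were below 0 in F3 and 4 were called lower. CCT8 had 192, 204 and 222 CPM in control and 169.6, 178 and 185 CPM in sGC animals, with no overlap (log2 fold change -0.21, SE 0.0379, adjusted p = 0.00676; edgeR). CCT2 was at 189, 199 and 209 and 171, 179 and 184 CPM (log2 fold change -0.16, SE 0.0301, adjusted p = 0.00897; edgeR). CCT6A had 191, 193 and 202 CPM in control and 172, 179.8 and 183 CPM in sGC animals (log2 fold change -0.12, SE 0.0274, adjusted p = 0.0160; edgeR). For both CCT2 and CCT6A, as for CCT8, the sGC animals were all below the control animals. CCT4 overlapped slightly at 182 to 211 and 168 to 184 CPM (log2 fold change -0.15, SE 0.0366, adjusted p = 0.0275; edgeR), and lost its call without control replicate 1, 2, 4 or 6 or sGC replicate 2 or 5, with adjusted p-values of up to 0.0659.

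The remaining ring subunits did not pass: CCT3 had -0.098 (adjusted p = 0.0588, and 0.0470 without sGC replicate 6), CCT5 -0.095 (adjusted p = 0.121) and CCT7 -0.13 (adjusted p = 0.354, all from edgeR). CCT6B, another copy of subunit 6 with few reads here, had a log2 fold change of 0.034 (SE 0.115) and is left out of the sum that follows. Summed over the 7 listed ring subunits, the level was 1383 to 1546 CPM in control animals and 1290 to 1383 CPM in sGC animals, so the groups met at the edge. The 8 tested cofactors that hand clients to the ring (prefoldin and phosducin-like proteins) gave 0 calls in edgeR, with 1 at an unadjusted p below 0.05, and 5 were below 0 with a median of -0.011. In mitochondria, HSPD1 was lower in 7 of 7 sGC animals than the control mean without passing, at 205 to 221 and 184 to 211 CPM (log2 fold change -0.11, SE 0.0328, adjusted p = 0.0543; edgeR), and at an adjusted p of 0.0206 without sGC replicate 3. Its lid HSPE1 differed by less than its spread between animals, with 61.2 ± 6.03 CPM (SD, n = 6) and 61.5 ± 2.78 CPM (SD, n = 7) (log2 fold change 0.0051, SE 0.0544, adjusted p = 0.971; edgeR).

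**Figure D3:**
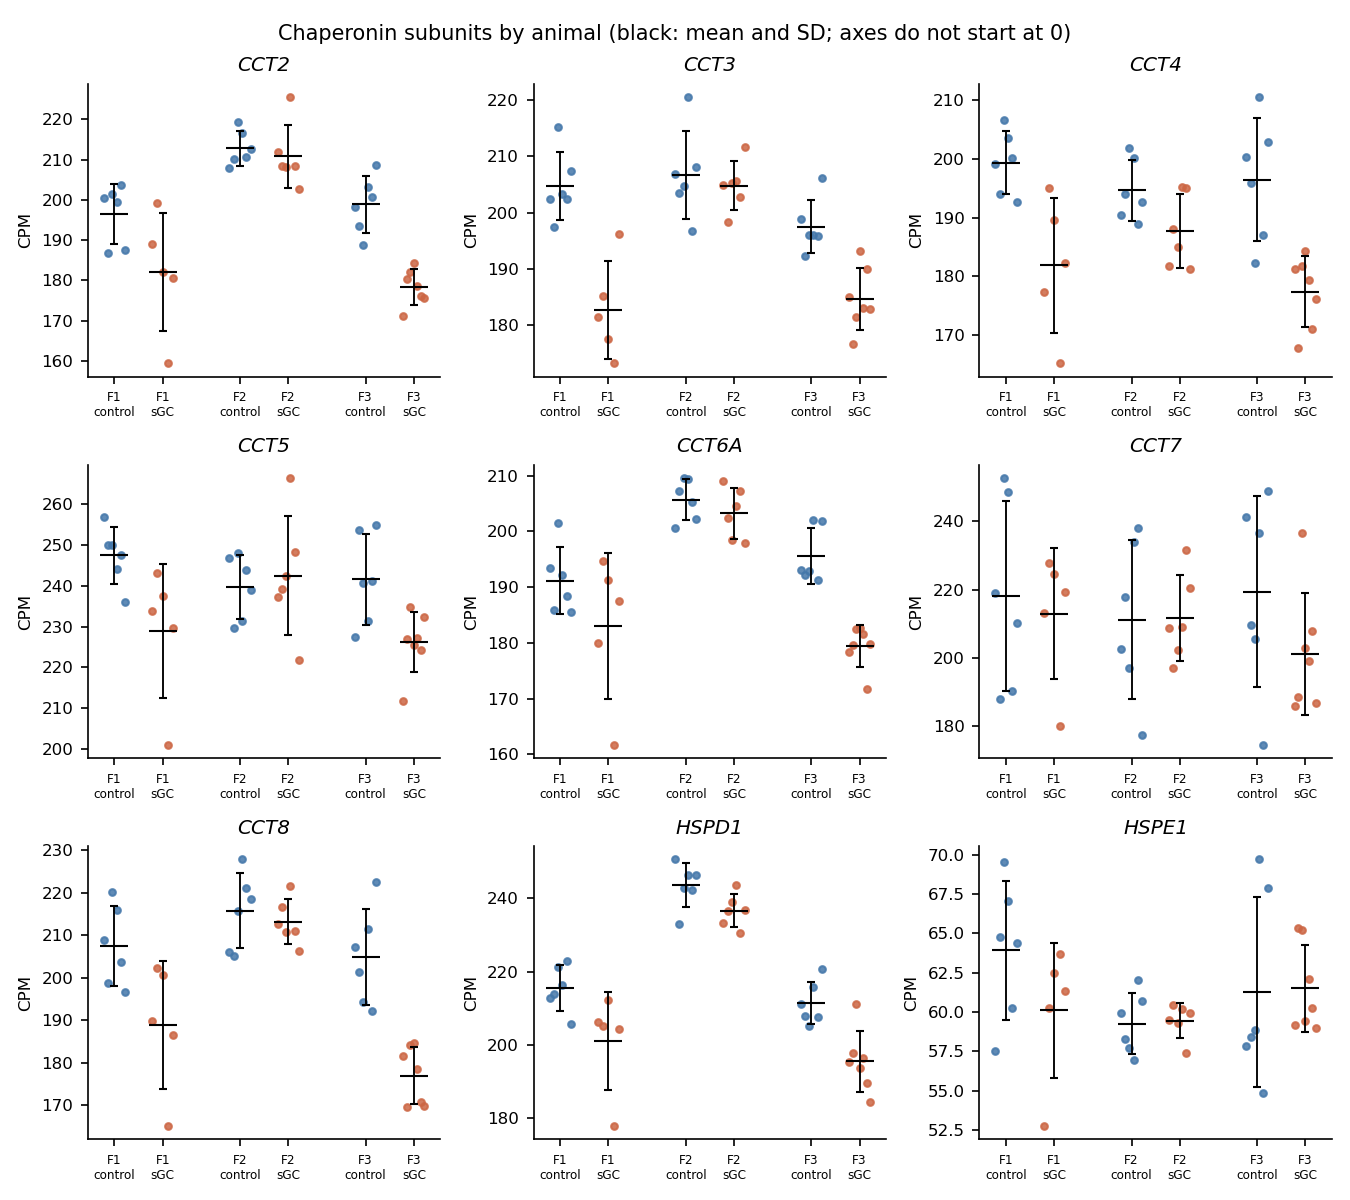
Level in CPM of 7 subunits of the cytosolic chaperonin and of HSPD1 and HSPE1 in each animal of the 6 groups; points are animals, black marks the mean and its SD, and the axes do not start at 0. For CCT2, CCT6A and CCT8 the F3 sGC animals lie below the control animals, whereas CCT7 and HSPE1 overlap in all 3 generations.

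Genes with an HSPB symbol, grouped here as small heat shock proteins, were not among the genes called lower in F3. Small heat shock proteins hold unfolded proteins without ATP. HSPB11, which was below 0 (log2 fold change -0.012), is in the group by its symbol alone. Of 5 tested, 4 were above 0 and 0 passed in edgeR, with 0 also at an unadjusted p below 0.05. HSPB1 (HSP27) had 37.5 to 47.4 CPM in control and 40.4 to 51.9 CPM in sGC animals (log2 fold change 0.083, SE 0.0616, adjusted p = 0.479; edgeR), and HSPB6 had 17.5 to 21.5 and 17.8 to 21.8 CPM (log2 fold change 0.010, SE 0.0606, adjusted p = 0.946; edgeR). HSPB8 was the highest by fold (log2 fold change 0.17, SE 0.111, adjusted p = 0.412; edgeR).

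Partners of the HSP70 and HSP90 machines, taken from a list of cofactors and regulators, were mostly below 0 in F3, at 21 of 26 tested, and 6 were called lower and 0 higher, with a median of -0.054, where 48.3% of all genes were below 0 and 2.87% were called lower. STIP1, which passes clients from HSP70 to HSP90, had 215 ± 6.16 CPM (SD, n = 6) in control and 195 ± 4.33 CPM (SD, n = 7) in sGC animals (log2 fold change -0.14, adjusted p = 0.0107; edgeR). AHSA1, which speeds the ATPase of HSP90, had a log2 fold change of -0.15 (adjusted p = 0.0333). BAG4, a nucleotide exchange factor, had a log2 fold change of -0.14 (adjusted p = 0.0267). The heat shock transcription factor HSF2 had a log2 fold change of -0.16 (adjusted p = 0.0274). TOMM70 and TOMM34 receive mitochondrial precursors from HSP70 and HSP90. TOMM70 had a log2 fold change of -0.15 (adjusted p = 0.00793) and TOMM34 a log2 fold change of -0.20 (adjusted p = 0.0241), all from edgeR. Of 9 genes of mitochondrial protein quality control, 0 passed in edgeR, with 2 at an unadjusted p below 0.05, and 5 were below 0.

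Markers of cell types moved in the same F3 comparison. Of 10 neuronal genes, 8 were below 0, and 4 were called lower (SNAP25, SYT1, NEFL and NEFM, with log2 fold changes from -0.17 to -0.22) and 0 higher. MAP2 and CAMK2A were above 0, each with a log2 fold change of 0.18 (edgeR, unadjusted p = 0.0171 and 0.0233), and did not pass after adjustment. The summed level of the 10 was 15633 to 16991 CPM in control and 14625 to 18524 CPM in sGC animals, with CAMK2A as its largest part. Of 7 markers of inhibitory neurons all 7 were below 0 and 2, GAD1 and GAD2, were called, and their sum was 701 to 782 CPM in control and 616 to 710 CPM in sGC animals. Of astrocyte markers 8 of 8 were above 0 and 3 (SLC1A2, GLUL and S100B) were called higher, and their sum was 9184 to 10165 CPM in control and 10382 to 11931 CPM in sGC animals, without overlap. Meningeal markers had overlapping sums of 95.3 to 149 CPM and 96.3 to 189 CPM. Of the tested oligodendrocyte (3), microglia (6), endothelial (5) and striatal or thalamic (6) markers 1 passed, LEF1, which was higher, and 2, 6, 5 and 3 were above 0. Of the choroid plexus and blood lists 1 gene each was listed in F3, at up to 9.23 and 4.41 CPM. The part of these shifts in the chaperone result was not tested.

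In F1, whose animals were themselves exposed before birth, 1 of 66 members passed, on the high side, beside 2.08% of all 11377 genes (1.63% higher). DNAJB14, a J protein anchored in the ER membrane, had 272, 289, 306, 295, 285 and 289 CPM in the 6 control animals and 321, 339.7, 329, 348 and 328 CPM in the 5 sGC animals. All sGC animals were above all control animals (log2 fold change 0.20, SE 0.0403, adjusted p = 0.0248; edgeR). The call held without control replicate 3 or 4 or sGC replicate 1 or 4, and was lost without any other animal, with adjusted p-values of up to 0.0607, and without sGC replicates 4 and 5 together, which left 0 calls. At an unadjusted p below 0.05 edgeR counted 18 members, 15 lower and 3 higher, where 19.6% of all genes were below that value, 9.06% lower and 10.5% higher. By direction 48 of 66 were below 0, with a median of -0.053, against 51.7% of all genes and a median of -0.0055. Members on the 2 sides without overlap of animals were 1 each, CCT3 below and DNAJB14 above (background 1.96% and 2.45%, together 4.41%). Without sGC replicates 4 and 5 they were 2 below (CCT3 and HSPBP1) and 2 above (DNAJB14 and DNAJC13), where the share over all genes was 4.68% and 5.1% with 3 sGC animals left.

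The lower genes of F1 were spread over the families, and none of those named next passed in edgeR's quasi-likelihood test. CCT3 and HSPA5 did pass in the likelihood ratio test and in DESeq2, and DNAJB2 in DESeq2. CCT3 had 197 to 215 CPM in control and 182, 185, 178, 173 and 196 CPM in the sGC animals (log2 fold change -0.16, SE 0.0399, adjusted p = 0.0513; edgeR). HSPA5 (BiP) had 382 to 479.5 CPM in control and 363, 321, 426, 317 and 326 CPM in sGC animals, where 4 of 5 were below all controls (log2 fold change -0.26, SE 0.0803, adjusted p = 0.10; edgeR), and an adjusted p of 0.0397 without sGC replicate 3. DNAJB2, a J protein rich in neurons, had 140.3 to 153 and 128 to 145 CPM (log2 fold change -0.13, SE 0.0421, adjusted p = 0.104; edgeR), with 0.0398 without sGC replicate 1. On the high side DNAJC13, an endosomal J protein, had 0.13 (adjusted p = 0.166, and 0.0373 without sGC replicate 4), and DNAJC24, which takes part in the diphthamide modification of a translation factor, 0.091 (adjusted p = 0.213; both edgeR). HSPBP1 lay lower in each of the 5 sGC animals than the mean of control, at 52.9 to 56.0 and 46.8 to 53.5 CPM (log2 fold change -0.12, SE 0.0417, adjusted p = 0.133; edgeR).

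A single animal, sGC replicate 4, carried much of the F1 difference in the cytosolic machines. HSPH1 was 319 to 369 CPM in control and 318, 339, 321, 240.4 and 309 CPM in sGC animals 1 to 5, so that replicate 4 was the lowest and the other 4 lay within or just below the control range. The log2 fold change of HSPH1 was -0.17 (SE 0.0754, adjusted p = 0.237 in edgeR) and -0.091 without that animal. HSPA8 repeated the pattern at 2052, 2102, 2155, 1442 and 1875 CPM in the sGC animals, against 1968 to 2339 CPM in control (log2 fold change -0.21, SE 0.0915, adjusted p = 0.227; edgeR), with -0.12 without replicate 4. Both HSP90AA1 (1999, 2091, 2133, 1655 and 2041 CPM) and DNAJA1 (216, 221, 252, 173 and 206 CPM) were also lowest in replicate 4, and DNAJA1 was highest of all F1 animals in replicate 3. The same replicate 4 had the highest sum of astrocyte markers among the F1 sGC animals, whose range was 9481 to 15487 CPM against 8308 to 10853 CPM in control, and the lowest sum of inhibitory neuron markers, in a range of 593 to 781 CPM against 679 to 786 CPM. The part of these levels in the chaperone values was not tested.

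Genes that the F3 animals showed lower had these values in F1: HSPA4L -0.025 (SE 0.0632), HSP90AA1 -0.10 (SE 0.0658), CCT8 -0.13 (SE 0.0534) and HSPA1A -0.21 (SE 0.186) on the log2 scale, none with an adjusted p below 0.05 in edgeR. The mitochondrial chaperonin had -0.099 for HSPD1 and -0.089 for HSPE1, with adjusted p-values of 0.252 and 0.421 in edgeR. Small heat shock proteins lay between -0.098 (HSPB1) and 0.048 (HSPB7), and 0 of 5 passed in edgeR, also at an unadjusted p below 0.05. Of the other main chaperones, HSPA4 had -0.094, HSPA9 -0.053, HSP90B1 -0.15, HSPB6 -0.032, DNAJA1 -0.084, DNAJB1 -0.18, DNAJC5 0.077 and DNAJC6 0.099 as log2 fold changes, with adjusted p-values of at least 0.195 in edgeR. In the ring CCT2 had -0.11, CCT4 -0.13, CCT5 -0.11, CCT6A -0.062 and CCT7 -0.033. DNAJC19 again had the highest coefficient of variation between control animals of the tested members, 29.1%, at 0.444 to 1.11 CPM. Of the partner lists, 22 of 26 cofactors were below 0 and 0 passed in edgeR (6 at an unadjusted p below 0.05). Of the 16 further ER folding genes 13 were below 0, with a median of -0.14 and 8 lower at an unadjusted p below 0.05 (background 9.06%), and 1 was called, the disulfide isomerase PDIA6 (log2 fold change -0.20, adjusted p = 0.0466). CLPB, a mitochondrial disaggregase, was called higher (log2 fold change 0.16, adjusted p = 0.0300; both edgeR). It was 1 of 9 genes of mitochondrial protein quality control, of which 7 were below 0, with a median of -0.063. At an unadjusted p below 0.05 edgeR counted 3 of these 9 lower and 1 higher (background 9.06% and 10.5%). Among cell type markers the fibroblast genes DCN and LUM were called lower, and the summed level of the 6 meningeal genes was 85.8 to 235 CPM in control and 58.4 to 115 CPM in sGC animals. Astrocyte markers were above 0 for 8 of 8 without passing, and no marker of oligodendrocytes, microglia, endothelial cells, choroid plexus, blood or striatal and thalamic neurons passed. The part of all these markers in the F1 values was not tested.

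In F2 no member passed, beside 0% of all 11414 genes. In edgeR 1 of 63 members had an unadjusted p below 0.05, where 6.64% of all genes did (2.9% lower, 3.74% higher), and the likelihood ratio test and DESeq2 also gave 0 calls among the members. That member was HSPA1B, the inducible HSP70, with 41.1, 45.9 and 57.9 CPM in control and 45.0, 57.6 and 65.6 CPM in sGC animals. It was above the control mean in 5 of 6 sGC animals with the groups overlapping (edgeR's quasi-likelihood test, log2 fold change 0.28, SE 0.0901, adjusted p = 0.678, unadjusted value 0.0069). HSPA1B was also the tested member with the highest coefficient of variation between F2 control animals, 13.6%, and its paralogue HSPA1A is not listed in this table.

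No other member had an unadjusted p below 0.05 in F2 in edgeR. On the low side the smallest p-values in edgeR belonged to HSPA4L (-0.067, SE 0.0333), CCT6B (-0.19, SE 0.0957) and DNAJB6 (-0.064, SE 0.0337), and on the high side, after HSPA1B, to DNAJB5 (0.091, SE 0.0452) and DNAJC7 (0.062, SE 0.0346). Of 63 members 39 were below 0, with a median of -0.014, against 50.3% of all genes. HSPH1 had 332, 342 and 374 CPM in control and 321, 344 and 369 CPM in sGC animals (log2 fold change -0.015, SE 0.0385, adjusted p = 0.953; edgeR). HSPA8 had 2195, 2280.0 and 2407 CPM and 1996, 2210.4 and 2394 CPM (log2 fold change -0.055, SE 0.0365, adjusted p = 0.793; edgeR). For both genes the groups overlapped, and 0 of 63 members had groups without overlap (background 0.403%, of which 0.184% lower and 0.219% higher). Of the other main chaperones, HSPA4 had a log2 fold change of -0.026, HSPA5 -0.019, HSPA9 -0.036, HSP90AA1 -0.036, HSP90B1 0.014, HSPB1 0.048, HSPB6 0.0021, DNAJA1 -0.048, DNAJB1 0.080, DNAJC5 -0.0058 and DNAJC6 0.014, with adjusted p-values of at least 0.796 in edgeR. The log2 fold changes of the 7 CCT ring subunits lay between -0.053 (CCT4) and 0.017 (CCT5), those of the 2 mitochondrial chaperonin genes were -0.042 (HSPD1) and 0.0060 (HSPE1), and the summed ring level was 1451 to 1540 CPM in control and 1442 to 1528 CPM in sGC animals. Of the partner lists and the cell type markers 0 genes passed in edgeR, with 2 partner genes at an unadjusted p below 0.05. Choroid plexus markers, of which 3 are listed in this table, summed to 9.14 to 477 CPM in control and 6.72 to 684 CPM in sGC animals.

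Whether the effect of sGC differed between generations was tested for each gene in a joint fit of all 36 libraries, because a call in F3 and none in F1 or F2 does not show a difference. Between F3 and F1, 0 of 64 members differed in edgeR (10 at an unadjusted p below 0.05), and 0% of all 11390 genes did, with 13.1% at an unadjusted p below 0.05. The likelihood ratio test and DESeq2 gave 1 member each, HSPBP1, whose log2 fold changes of -0.12 in F1 and 0.14 in F3 differed by 0.26 (SE 0.0562, adjusted p = 0.0724 in edgeR, 0.0251 in the likelihood ratio test and 0.0161 in DESeq2). Without the libraries numbered 32 to 36 it was 0.32 with an adjusted p of 0.00662 in edgeR, and HSPA4L (-0.23, adjusted p = 0.00662) and DNAJC16 (-0.26, adjusted p = 0.0318) passed too.

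Between F3 and F2, 0 of 64 members differed in edgeR, with 13 at an unadjusted p below 0.05 where 9.08% of all genes were, and 0% of all genes passed. The likelihood ratio test and DESeq2 also gave 0 members. The smallest adjusted p, 0.456, was shared by CCT8 (difference -0.19, SE 0.0561) and HSPH1 (-0.24, SE 0.0707). For HSPA8 the difference was -0.20 (SE 0.0821). Between F2 and F1, 1 of 64 members differed, beside 0.29% of all genes: DNAJB14, whose log2 fold change was 0.20 in F1 and -0.041 in F2, a difference of -0.25 (SE 0.0547, adjusted p = 0.0275 in edgeR). The control level of DNAJB14 also differed between the tables, at 289 CPM in F1, 381 CPM in F2 and 316 CPM in F3. Its F2 control animals lay apart from those of F1 and F3, so generation and table cannot be told apart.

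Side by side, of the 14 members called lower in F3, 13 were also below 0 in F1 (4 of them at an unadjusted p below 0.05) and 12 of the 13 tested were below 0 in F2 (0 at an unadjusted p below 0.05). The exception in both was DNAJC16, at 0.038 in F1 and 0.0057 in F2. DNAJC15 and DNAJC27, called higher in F3, were above 0 in F1 and below 0 in F2. Over all 66 members tested in F1 and F3, 38 were below 0 in both, 11 above 0 in both and 17 had opposite signs. Of the 63 tested in all 3 generations, 26 were below 0 and 3 above 0 throughout. All members of a generation were measured in the same animals, so these counts over genes are descriptions and not independent observations. Of all tested members, 48 of 66 were below 0 in F1 and 39 of 63 in F2. The same counts of shared direction were not made over all genes, so agreement beyond the general direction cannot be read from them.

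**Figure D4:**
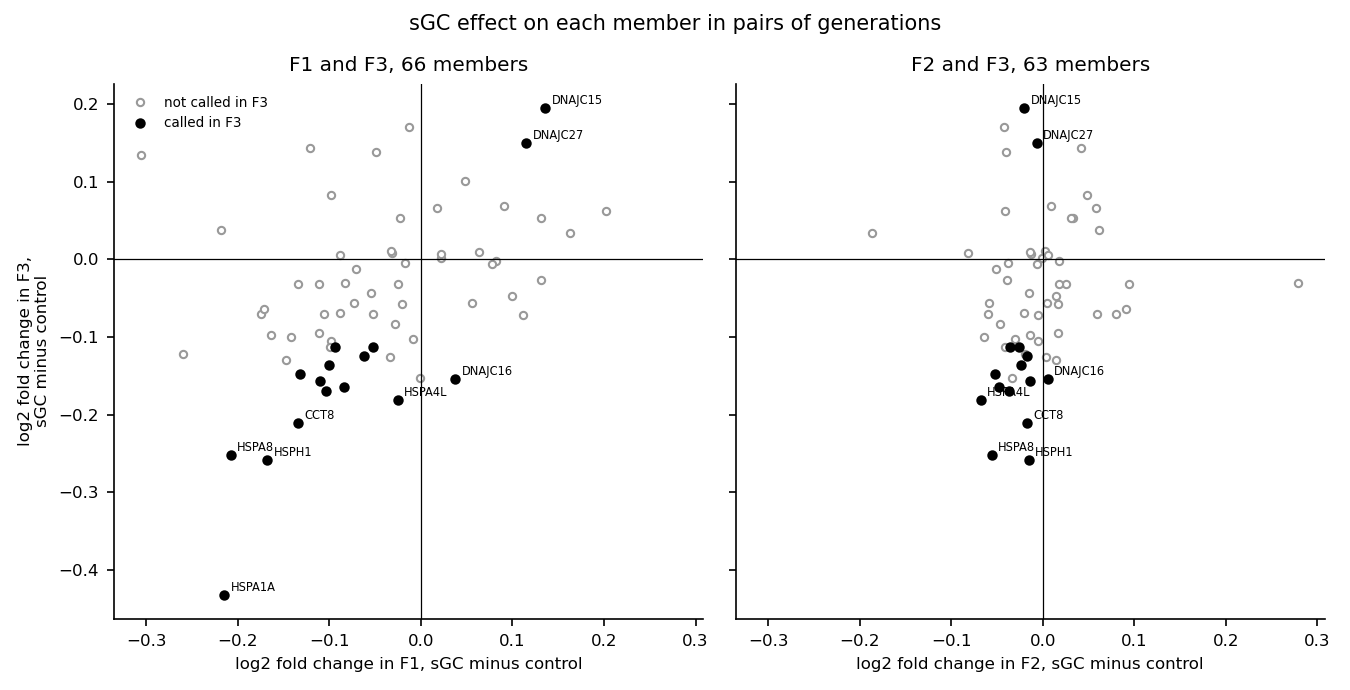
Log2 fold change of sGC minus control in F3 (vertical) against that in F1 (left, 66 members) and in F2 (right, 63 members); filled points were called in F3. The points called lower in F3 lie mostly at negative values in F1, between -0.21 (HSPA1A) and 0.038 (DNAJC16), and closer to 0 in F2, where HSPA4L is the lowest of them at -0.067.

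HSPH1 also varied together with HSPA8, HSP90AA1, HSPA4L and DNAJA1 between animals of the same group. After the mean of each group was removed, the level of HSPH1 over the 36 libraries had a Pearson r of 0.83 with HSPA8 (Spearman rho 0.66; permutation test within groups, adjusted p = 0.000330 for r and 0.000477 for rho), 0.83 with HSP90AA1 (rho 0.72; permutation test, adjusted p = 0.000330 and 0.000385), 0.82 with HSPA4L (rho 0.67; permutation test, adjusted p = 0.000330 and 0.000660) and 0.77 with DNAJA1 (rho 0.64; permutation test, adjusted p = 0.000357 and 0.000385). The p-values were adjusted over 11 partners. For comparison, the r of HSPH1 with all 11389 other genes had a median of -0.010 and a 5th to 95th percentile range of -0.53 to 0.53. The r of HSPA8 was reached by 0.0176% of genes, a share that counts HSPA8 itself. All libraries carry their own depth and RNA quality into both measures.

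The other 7 partners were the chaperonins, HSPB1, the ER chaperones and the heat-inducible J protein DNAJB1, and the correlations were not tested against each other. HSPH1 had an r of 0.68 with the summed CCT subunits (rho 0.51; permutation test, adjusted p = 0.00552 and 0.0111), 0.64 with HSPD1 (rho 0.46; permutation test, adjusted p = 0.00960 and 0.0227) and -0.55 with HSPB1 (rho -0.41; permutation test, adjusted p = 0.00946 and 0.0340). With DNAJB1 it was 0.070 (rho 0.11), with HSPE1 -0.045 (rho 0.051), with HSPA5 0.22 (rho 0.21) and with HSP90B1 0.35 (rho 0.20), and the permutation test gave adjusted p-values for r from 0.191 to 0.822 for these 4. The 5th to 95th percentile range over all genes was -0.53 to 0.53, so the r of HSPB1 lay close to its lower edge. Leaving out the 2 libraries farthest from the median of HSPH1, F1 sGC replicates 4 and 2, lowered r to 0.66 for HSPA8, 0.67 for HSP90AA1, 0.63 for HSPA4L, 0.64 for DNAJA1, 0.42 for the CCT sum, 0.41 for HSPD1 and -0.36 for HSPB1.

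Within generations the values were uneven. The r of HSPH1 with HSPA8 was 0.95 in F1 (n = 11), 0.65 in F2 (n = 12) and 0.30 in F3 (n = 13), with HSP90AA1 0.97, 0.55 and 0.42, with HSPA4L 0.95, 0.64 and 0.22, with DNAJA1 0.85, 0.51 and 0.67, and with the CCT sum 0.97, 0.16 and 0.062. The relation with the CCT sum therefore rested on F1. Without the libraries numbered 32 to 36, which include F1 sGC replicate 4, r was 0.62 for HSPA8, 0.66 for HSP90AA1, 0.57 for HSPA4L and 0.48 for DNAJA1 (permutation test, adjusted p = 0.00561, 0.00561, 0.0136 and 0.0457), where rho of DNAJA1 did not pass (permutation test, adjusted p = 0.185). It no longer passed for the CCT sum (0.39, permutation test, adjusted p = 0.131), HSPD1 (0.28, 0.205) or HSPB1 (-0.32, 0.204).

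**Figure D5:**
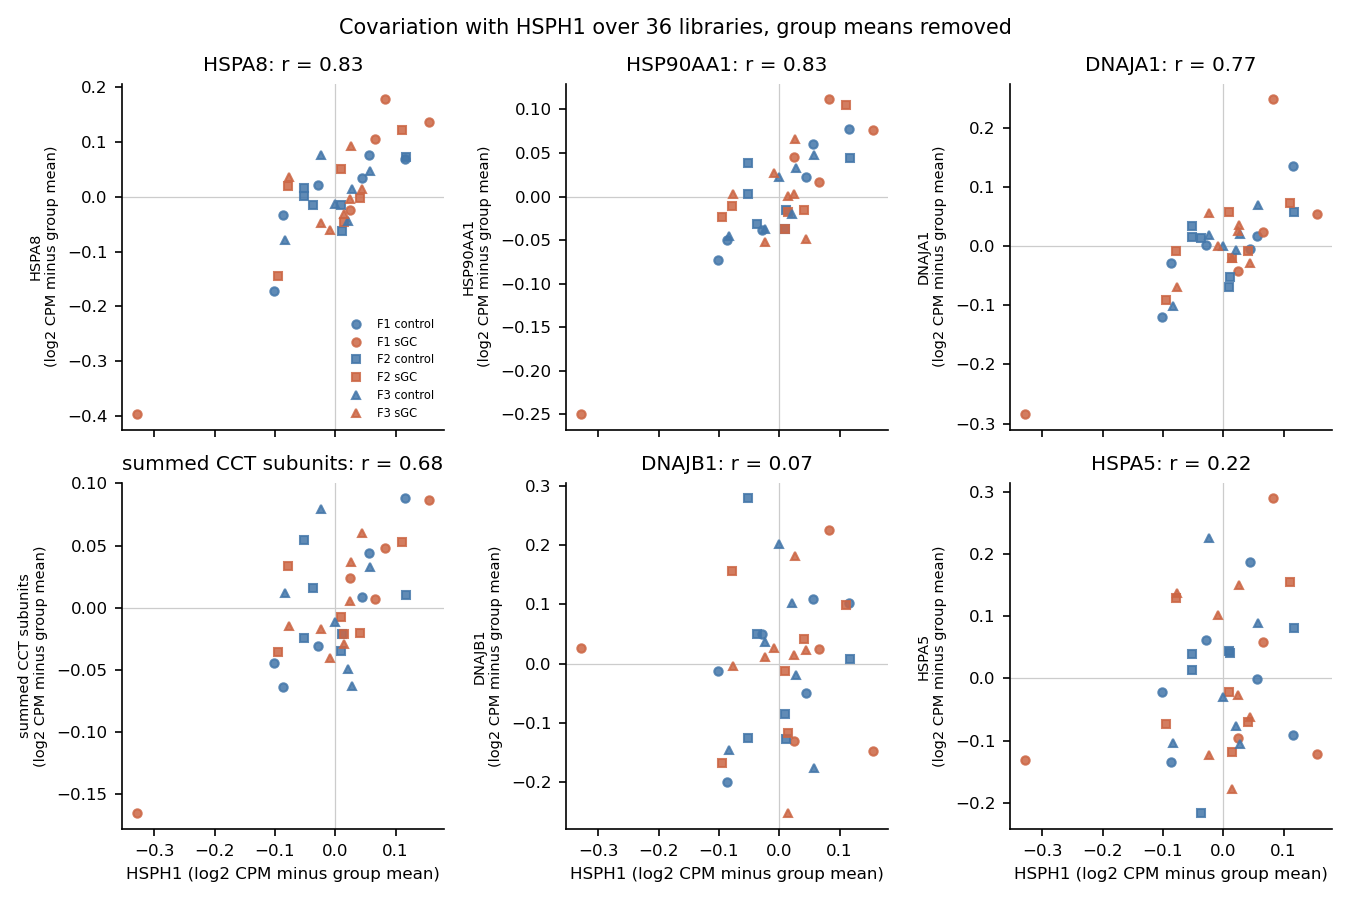
Level of HSPA8, HSP90AA1, DNAJA1, the summed CCT subunits, DNAJB1 and HSPA5 (vertical) against that of HSPH1 (horizontal), each as log2 CPM minus the mean of the animal's group; each point is 1 of 36 libraries, shaped by generation and coloured by group. The lowest point for HSPH1 in every panel is F1 sGC replicate 4, and DNAJB1 (r = 0.070) shows no trend.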

How the data were processed

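RNA-seq libraries of 36 hippocampi were analysed from 3 tables, 1 for each generation, which hold read counts per gene that the authors deposited without normalization. The submitters' processing notes name TopHat2 and edgeR among the tools; the genome build, the counter and its strand setting are not given in the sources used here. The authors' own comparison columns (fold changes, likelihood ratios, p-values, FDR) and the methylation tables, which hold comparisons of the same kind, were not used.

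Counts were scaled by TMM and tested within each generation by edgeR 4.0.16 (R 4.3.3) with the quasi-likelihood test after filterByExpr, adjusted by Benjamini-Hochberg over all genes tested at 0.05. Differences between generations came from a fit of all 36 libraries over the genes common to the tables. Correlations with HSPH1 used log2 CPM less the group mean and 100000 permutations within groups in Python 3.11.15. Alternatives were the likelihood ratio test, DESeq2 1.42.0, DESeq2 size factors, no filter, all generations fitted together, a replicate block, each animal left out, and the libraries numbered 32 to 36 left out. Sums over the members and non-overlap counts without those libraries were added after seeing the data.

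Group and replicate came from the sample titles and characteristics. No 2 libraries were alike within sampling noise (chi-square per degree of freedom of at least 2.11 over 91 pairs). Per the study's methods the animals of a group came from different mothers; the labels do not name litters. On simulated counts, the share of 1.2-fold changes recovered was 56% for F3 (11344 genes), 44% for F1 (11360 genes) and 56% for F2 (11382 genes), and of 1.5-fold changes 92%, 94% and 90%. Each simulation held 50 genes at each fold, up to 2-fold, and the larger changes ease the adjustment of the smaller. Recovery may therefore be lower in F2, where 0 genes passed. Most log2 fold changes of members were smaller than any simulated fold.

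The members, the lists of partners and of cell type markers, and the tests were chosen with earlier results of these data known. Named members are those that passed, the 3 lower and 3 higher with the smallest p where fewer than 6 passed, the main chaperones by role, members with a generation difference and the tested member with the highest coefficient of variation between controls; HSPBP1, HSPA12A, DNAJA3, DNAJA4, HSPA13 and HSPB8 were named after their values were seen. Promoter and protein sequences were not used here.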

Additional observations from a re-analysis of the deposited data

Results flagged for a closer look

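Of 82 sets of animals examined for 1 value that stands far from the others, 4 had one, where chance gives about 5% of sets. In F3 sGC animals, CCT6A was lowest in replicate 6 at 171.8 CPM, beside a group median of 179.8 CPM. DNAJC15 was lowest in F3 sGC replicate 3 at 87.4 CPM, beside a median of 98.8 CPM, and this was the animal inside the control range. In F1 sGC animals, DNAJB2 was highest in replicate 1 at 145.4 CPM (median 132.3 CPM). HSPD1 was lowest in F1 sGC replicate 4 at 177.8 CPM (median 205.0 CPM), the animal in which HSPH1 and HSPA8 were also lowest.

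The effect of sGC on DNAJB14 differed between generations, being 0.20 in F1 and -0.041 in F2 on the log2 scale, a difference of -0.25 (SE 0.0547, adjusted p = 0.0275 in edgeR's quasi-likelihood test over all 36 libraries). With a replicate block its adjusted p was 0.0984. The control level of DNAJB14 also differed between the F1 and F2 tables, so generation and table cannot be told apart.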

How the results depend on the processing

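The median log2 fold change of the members kept its sign in each generation under every setting run; without single animals it lay between -0.074 and -0.043 in F1, -0.020 and -0.0054 in F2, and -0.067 and -0.041 in F3. Of the 16 members called in F3, HSPH1, HSPA8, HSPA4L, HSP90AA1 and DNAJC15 passed in all 20 alternatives. F3 gave 9 calls without the libraries numbered 32 to 36 (CCT4, CCT6A, DNAJA2, DNAJC16, HSPA1A, HSPA4 and HSPA9 were lost), 11 without sGC replicate 5 to 18 without sGC replicate 6, 14 to 20 by the other tests, scaling, filter and joint fit, and 6 with a replicate block. F1, with 1 call, gave 3 by the likelihood ratio test, 4 by DESeq2, 7 with all generations fitted together, 0 without libraries 32 to 36, and 0 to 2 without single animals. The likelihood ratio test, DESeq2 and the joint fit each added CCT3 and HSPA5. DNAJB2 was added by DESeq2 and the joint fit, and CCT4, DNAJB6 and HSPA8 by the joint fit. Each of these added members had a log2 fold change below 0 in F1. F2 gave 0 calls under every setting run. Members whose effect differed between F3 and F1, 0 in the quasi-likelihood test, were 1 by the likelihood ratio test, 1 by DESeq2 and 3 without libraries 32 to 36. Between F2 and F1 DESeq2 gave 2 (DNAJB14 and CCT3), against 1. Without libraries 32 to 36 the correlations of HSPH1 with the CCT sum (0.39), HSPD1 (0.28) and HSPB1 (-0.32) no longer passed; the cause was not tested.

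Replicate numbers were checked for pairing: r of same-numbered animals exceeded 0.1 in 2 of 5 pairs in F1, 1 of 6 in F2 and 0 of 6 in F3. So few pairs cannot exclude a pairing. The labels name no pairs, so the numbers were treated as names. With a replicate block as an alternative, 6 members passed in F3, against 16 without it, 0 in F1, 0 in F2 and 0 for the difference between F2 and F1.

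The depth leaves low genes such as HSPA1A, DNAJC19 and HSPB7 with wide errors. Changes near 1.2-fold were often missed in simulated data, and smaller ones were not simulated.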
